A study of Mus musculus with 30 samples.

Results

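Interscapular brown adipose tissue (iBAT) and inguinal white adipose tissue (iWAT) of the same 5 WT mice were compared gene by gene. The 10 libraries, 1 per depot and mouse, were taken by their labels from the 30 libraries of the study. All 10 came from male mice on a C57Bl/6J background that were 2 months old when the diet began, ate a diet with 45% of its energy as fat for 12 weeks and went without food for 4 h before the depots were removed. No genetic change and no drug separated the groups, and the depot was the difference that the labels named. The column headers of iBAT of mice 4 and 5 opened with another code than those of their iWAT and of the other WT fat libraries. Headers of liver of mice 4 and 5 opened with the code of their iBAT. What the code stands for was not given, and in those mice its part cannot be told apart from that of the depot. The other libraries of the study came from WT liver and from the same 3 tissues of LFABP-/- mice, which lack the liver fatty acid-binding protein encoded by Fabp1, and the fat libraries of those mice are used below only where they show how the WT difference held in other animals. Each library is RNA of a piece of whole depot with adipocytes, vessels, nerves, blood and whatever adjoining tissue was taken with it. Only fat-fed males of 1 background were sequenced, so the depots were not compared on another diet or at another temperature.

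Brown adipocytes burn fatty acids to make heat. Their mitochondria carry uncoupling protein 1 (UCP1), which lets protons return across the inner membrane without making ATP, and noradrenaline from sympathetic nerves switches the process on by way of beta-adrenergic receptors. White adipocytes hold triglyceride in a large droplet and secrete hormones such as leptin, and inguinal fat can take on brown-like cells in the cold. The depots also come from different parts of the body axis, and cells in fat keep part of the Hox code that marks those parts.

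The table gives each gene a value on a per-million, per-length scale (the values of each library sum to between 999967 and 999996), so levels of different genes can be set side by side. Genes of the mitochondrial genome took 54.4 to 60.1% of the total in the 5 iBAT libraries and 13.3 to 20.6% in the 5 iWAT libraries. The mean share was 57.8 ± 2.44% (SD, n = 5) in iBAT and 16.8 ± 3.25% in iWAT, a difference of 41.0 percentage points that was positive in 5 of 5 mice. An exact two-sided sign-flip permutation test over the 5 mice gave p = 0.0625, the smallest value that 5 pairs allow, so this test cannot pass 0.05. Because values share a fixed sum, a larger mitochondrial share lowers every other gene of the library. The depots were therefore compared on the deposited scale and again after mitochondrial genes were left out and the rest rescaled to a common sum. A nuclear gene is called higher or lower here only where limma, with the mouse as a block, gave an adjusted p under 0.1 and an absolute log2 difference over 1 in the same direction on both scales. Values and log2 differences below (iBAT minus iWAT, of log2(value + 0.5)) are on the scale without mitochondrial genes unless the deposited scale is named.

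The brown and white marker genes went with the labels of the depots except Lhx8, a set brown marker that was called lower in iBAT (values below). Ucp1 (ENSMUSG00000031710, chromosome 8, 83290352 to 83298452 in GRCm38) had values of 13408, 13292, 11283, 9711 and 9471 in iBAT of mice 1 to 5 and of 11.3, 22.9, 1.97, 1.84 and 3.97 in iWAT. Lep, which encodes leptin, had values of 36.8, 11.3, 41.4, 23.3 and 11.8 in iBAT and of 2709, 1106, 1135, 590.1 and 648 in iWAT. The depots did not overlap for either gene, and the log2 differences were 10.90 (SE 0.45, adjusted p = 1.2e-05) for Ucp1 and -5.57 (SE 0.30, adjusted p = 2.16e-05) for Lep. Adipoq (adiponectin), Plin1 (perilipin 1, the coat of the lipid droplet), Fabp4 and Pparg, which both kinds of adipocyte use, were present in all 10 libraries, with mean values of 1827 ± 79.1, 1252 ± 232, 6444 ± 556 and 281 ± 38.8 in iBAT and of 6427 ± 1607, 1787 ± 387, 10308 ± 2556 and 195 ± 48.5 in iWAT.

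**Figure D1:**
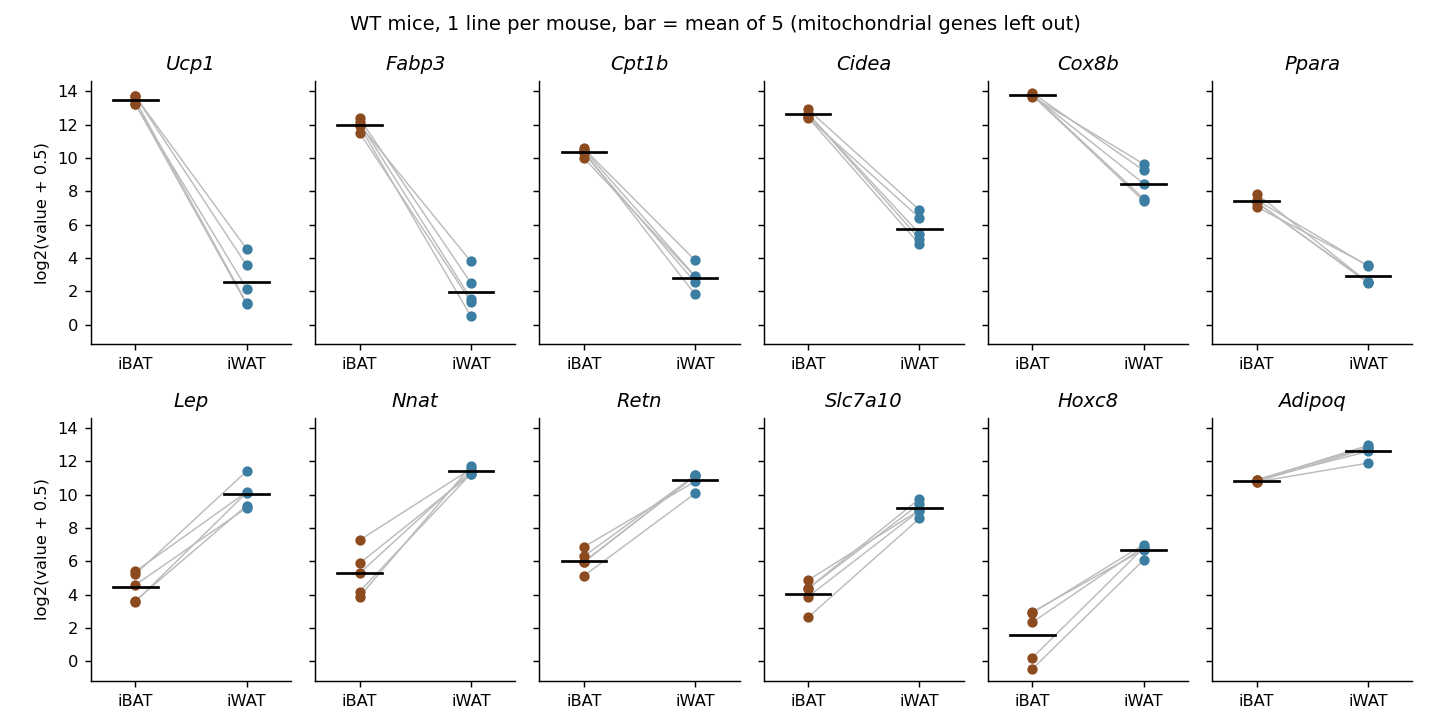
Each panel plots 1 gene as log2(value + 0.5) with mitochondrial genes left out, in iBAT (brown points) and iWAT (blue points) of the 5 WT mice, with a grey line per mouse and a black bar at the mean of the 5 points. Ucp1, Fabp3, Cpt1b, Cidea, Cox8b and Ppara fall from iBAT to iWAT in every mouse, and Lep, Nnat, Retn, Slc7a10, Hoxc8 and Adipoq rise in every mouse.

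Libraries also differed within a depot. Over 29 skeletal muscle genes, the share of the value that remained after mitochondrial genes were left out was 0.486, 1.19, 1.91, 5.87 and 10.8% in iBAT of mice 1 to 5 and 0.0154 to 0.127% in iWAT, with no overlap. Myh4, the heavy chain of fast muscle myosin, had values of 432, 1033, 719, 5378 and 8085 in iBAT and 3.97, 87.5, 1.39, 0.115 and 0.621 in iWAT, so mice 4 and 5 were high in iBAT and mouse 2 in iWAT. Genes of slow fibres took another order, and Tnnt1 (slow troponin T, chosen after its values were seen) had 15.9, 16.4, 154, 24.3 and 1.1 in iBAT. In iWAT, the mean log2 value of the lymphocyte genes was 4.87 in mouse 3 and 6.56 in mouse 4 against 1.09 to 1.38 in the other 3 mice, and iWAT of mouse 1 stood above the other 4 for epithelial genes (3.77 against 0.80 to 1.00) and smooth muscle genes (5.65 against 4.83 to 5.00). Between 17092 and 17680 genes had a value above 0 in iBAT and between 18939 and 20340 in iWAT. The reads behind a value are unknown, so no counting interval can be given. Fabp1 does not check the genotype labels in fat: its deposited value was 9166 to 12698 in WT liver and 0.2 to 51.8 in liver labelled LFABP-/-, but 0.2 to 23.9 in WT fat and 0.2 to 196.1 in fat labelled LFABP-/-.

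**Figure D2:**
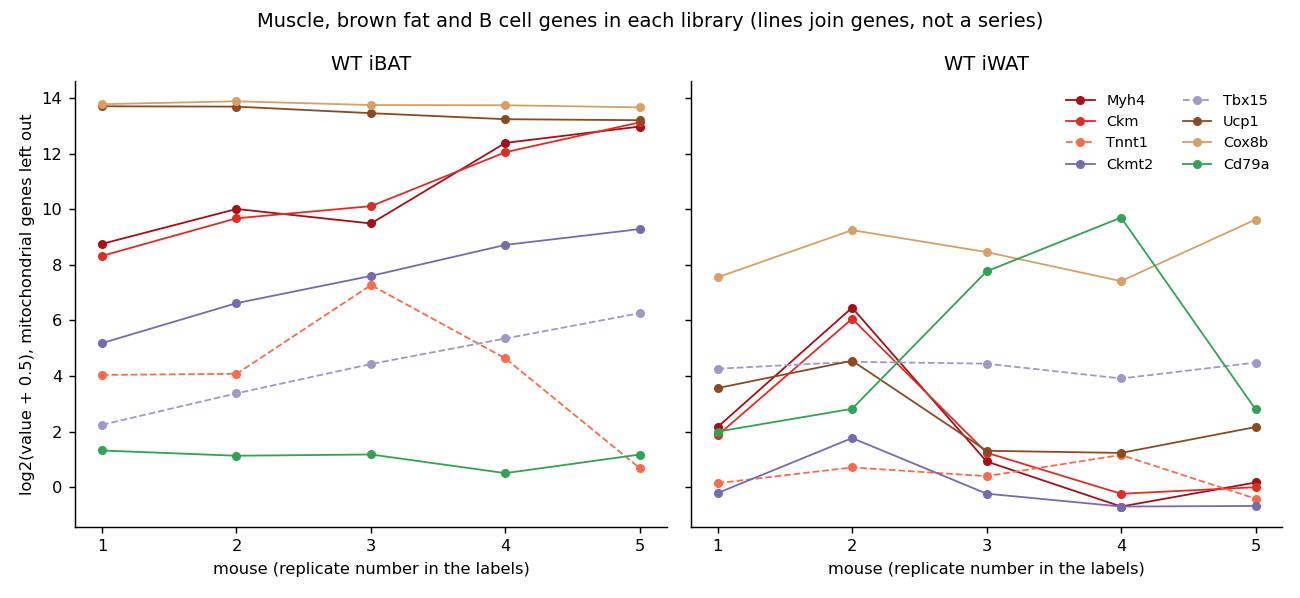
Values of 8 genes as log2(value + 0.5), mitochondrial genes left out, in iBAT (left) and iWAT (right) of WT mice 1 to 5, with lines that join the points of a gene. In iBAT the muscle genes Myh4 and Ckm run from below 9 in mouse 1 to about 13 in mouse 5 and Ckmt2 and Tbx15 take the same order at lower values, while Ucp1 and Cox8b stay between 13 and 14, and in iWAT the B cell gene Cd79a is highest in mice 3 and 4.

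Of 14866 genes tested on both scales, 644 (4.33%) were called higher in iBAT and 4529 (30.5%) lower. The split between directions depended on the scale. On the deposited scale 671 of 14895 genes were higher and 10117 lower, so 6.22% of the calls were increases, and the median log2 difference of all genes was -1.36. With mitochondrial genes left out, 1487 of 15477 were higher and 4607 lower (24.4% increases, median -0.53). With median-ratio scaling of the same values, 2312 of 15334 were higher and 3021 lower (43.4% increases, median -0.07). All 644 increases called on both scales were also called with median-ratio scaling, as were 3019 of the 4529 decreases. That scaling raised the log2 differences (median from -0.53 to -0.07), so it favours increases. The rule of both scales favours decreases, since an increase must also pass on the deposited scale, where the median was -1.36. It kept 644 of the 1487 increases called with mitochondrial genes left out and 4529 of the 4607 decreases. The shares of 4.33% and 30.5%, used below for all genes, thus depend on the rule. These counts do not test 1 direction against the other. Of the 644, 212 had a value in iBAT of mouse 5 at least 4 times that of mouse 1, and 412 had a ratio under 2. With the mean log2 level of the muscle genes as a covariate in both fits, 329 of the 644 and 1349 of the 4529 were still called, without mice 4 and 5 these were 554 and 3789, and without mice 3 and 4 they were 564 and 3428. The muscle level had no overlap between depots (mean log2 4.88 to 8.35 in iBAT and 0.55 to 3.51 in iWAT, deposited scale). Depot and muscle are thus hard to separate in the covariate fit, and a call lost in it here or below need not depend on muscle.

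**Figure D3:**
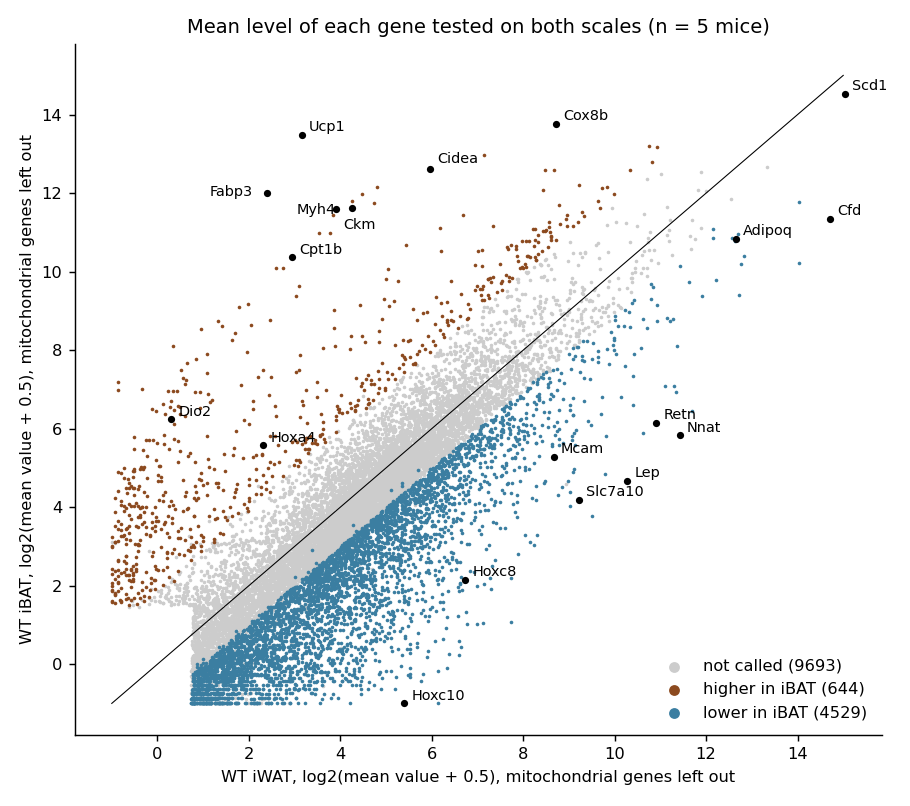
Each point is 1 of the 14866 genes tested on both scales, placed by log2(mean value + 0.5) in WT iWAT (horizontal) and WT iBAT (vertical) with mitochondrial genes left out. Brown points are the 644 genes called higher in iBAT, blue points the 4529 called lower, grey points the rest, black points the genes written beside them, and the line marks equal values, with Ucp1 and Fabp3 far above it and Hoxc10, at 0 in iBAT, far below it.

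The 12 named genes with the largest increase were Ucp1, Fabp3, Myh4, Atp2a1, Ckm, Pvalb, Tcap, Tnnt3, Mb, Lncbate10, Actn3 and Tnni2, and 9 of these are contractile, calcium or energy genes of skeletal muscle whose iBAT values followed the muscle share. Their log2 differences ran from 7.78 (Tnni2) to 8.93 (Myh4), with SEs of 0.92 (Mb) to 1.42 (Myh4), against SEs of 0.45 for Ucp1, 0.41 for Fabp3 and 0.11 for Lncbate10. All 29 genes of the skeletal muscle list were called higher (median 6.37), and 26 had an iBAT value in mouse 5 at least 4 times that in mouse 1. More muscle fibres in a piece and more RNA per fibre cannot be told apart in whole tissue. With the muscle genes as a covariate the sign turned for 8 of the 9 named, all but Mb. The covariate is the mean of the muscle list itself, so its members lose their difference by construction. With it 0 of the 29 were higher, which is no test of these genes. The 12 genes with the largest increase among those with a ratio of mouse 5 to mouse 1 under 2, a list drawn up after the values had been seen, were Ucp1, Fabp3, Lncbate10, Cpt1b, Lgr6, Cox7a1, Aspg, Cidea, Slc27a2, Kng2, Acot11 and Pank1.

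Of 27 genes of the thermogenic and brown identity list, 19 were higher in iBAT and 3 lower, with a median log2 difference of 4.76 against -0.55 over all genes tested. With the muscle genes as a covariate 18 were higher and 1 lower. Ucp1 was 1360.0 times as high in the mean of iBAT as in that of iWAT. Fabp3, which carries fatty acids in the cytosol of oxidative tissues, had 5292, 4093, 4474, 3885 and 2918 in iBAT and 5.18, 13.3, 2.44, 0.922 and 2.11 in iWAT. Cidea, a lipid droplet protein of brown adipocytes, had 6449, 7657, 6386, 5505 and 5473 in iBAT and 35.2, 117, 43.6, 27.9 and 84.4 in iWAT. The depots were apart in each of these genes by more than the whole spread within a depot.

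The other increases of the list fell on fuel use, ion movement and hormone action. Cpt1b, the muscle and brown fat form of the enzyme that sends fatty acids into mitochondria, had a log2 difference of 7.55 (SE 0.26, mean 1318 ± 195 against 7.22 ± 4.1). Elovl3, which lengthens fatty acids, had 158, 414, 130.1, 62.2 and 319.6 in iBAT and 2.77, 2.52, 0.581, 0.346 and 0.248 in iWAT, the widest spread relative to its mean in iBAT among the increased genes of this list. Dio2, which makes active thyroid hormone inside the cell, had 91.1, 71.98, 42.1, 57.9 and 111 in iBAT and stayed between 0.231 and 1.39 in iWAT. Smaller log2 differences, all of them called higher, were found for Gk, glycerol kinase (5.17), Pdk4, a brake on glucose oxidation (4.79), Otop1, a proton channel (4.77), Plin5, which couples droplets to mitochondria (4.76), Kcnk3, a potassium channel (3.28), Ppargc1a, a coactivator of mitochondrial genes (2.69), and Sirt3, a mitochondrial deacetylase (2.24). Zic1, a transcription factor of the dorsal trunk, had 7.96, 6.98, 6.52, 5.26 and 1.97 in iBAT and was at 0 in 3 of 5 iWAT libraries, with 0.12 and 0.126 in the others.

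Not every gene of that list was higher in iBAT. Prdm16, a determinant of brown adipocytes, had means of 11.9 ± 1.23 in iBAT and 7.82 ± 2.01 in iWAT, with overlap between depots, and its log2 difference was 0.60 here but -0.32 on the deposited scale. Ebf2, which acts with it, had 30.9 ± 6.61 and 17.5 ± 3.42, a difference of 0.79 here and -0.16 on the deposited scale. Lhx8, a transcription factor reported from brown fat and set as a brown marker here, was called lower. It was at 4.48, 3.13, 6.27, 0.915 and 0.219 in iBAT and 8.43, 8.31, 9.99, 4.96 and 5.46 in iWAT, with overlap. Epsti1 was called lower too, at 3.98, 1.93, 2.01, 1.37 and 3.07 in iBAT and 13.97, 11.5, 96.1, 219 and 16.9 in iWAT, and its iWAT values were highest in mice 3 and 4, the libraries with the most lymphocyte RNA. Cited1 was the other gene called lower, at 0.563 ± 0.195 and 2.57 ± 2.71, with overlap. Tbx15 had 4.23, 9.87, 21.1, 40.3 and 76.3 in iBAT, the order of the muscle genes, and 18.7, 22.3, 21.3, 14.5 and 21.9 in iWAT.

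The 250 bases before the start of Ucp1 are shown with those of Sdhd and Ndufb4, a complex II and a complex I subunit gene, because all 3 were higher in iBAT while the motifs below were found in the subunit genes alone. Ndufb4 was chosen for its matches. The sequences are from RefSeq on GRCm38.p6 and run 5′ to 3′ on the strand of the gene. Capitals mark matches on either strand to motifs searched in all promoters, namely those of NRF1 (GCGCANGCG), of the estrogen-related receptors (TNAAGGTCA), of ETS factors (CCGGAAGTG) and of cyclic AMP response factors (TGACGTCA), none of which contains another.
Ucp1, chr8:83290098-83290347, plus strand: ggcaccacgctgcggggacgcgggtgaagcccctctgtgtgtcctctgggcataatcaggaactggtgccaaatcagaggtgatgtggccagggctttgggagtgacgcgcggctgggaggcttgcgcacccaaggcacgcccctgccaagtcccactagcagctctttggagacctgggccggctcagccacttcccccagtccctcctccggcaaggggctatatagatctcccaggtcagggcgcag
Sdhd, chr9:50603850-50604099, minus strand: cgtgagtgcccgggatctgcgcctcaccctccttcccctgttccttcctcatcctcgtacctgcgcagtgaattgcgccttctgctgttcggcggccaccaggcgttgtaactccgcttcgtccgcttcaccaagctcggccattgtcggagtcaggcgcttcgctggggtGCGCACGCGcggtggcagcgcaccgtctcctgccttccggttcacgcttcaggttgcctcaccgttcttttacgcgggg
Ndufb4, chr16:37654369-37654618, minus strand: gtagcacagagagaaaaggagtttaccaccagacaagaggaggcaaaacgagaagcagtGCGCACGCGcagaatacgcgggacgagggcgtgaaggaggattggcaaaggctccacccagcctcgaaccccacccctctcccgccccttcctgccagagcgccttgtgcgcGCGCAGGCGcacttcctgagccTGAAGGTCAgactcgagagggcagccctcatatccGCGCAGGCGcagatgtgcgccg
The Ucp1 stretch holds none of the 4 motifs, the Sdhd stretch holds 1 NRF1 match, and that of Ndufb4 holds 3 NRF1 matches and 1 estrogen-related receptor match (TGAAGGTCA). In windows from 250 bases before to 50 after the start, which matched 11238 of the genes tested, the NRF1 letters stood in 13.95% of all genes, in 20 of 65 nuclear genes for subunits of complexes I to V (30.77%) and in 2 of 20 thermogenic genes. Among all genes called, they stood in 43 of 482 of those higher in iBAT (8.92%) and in 7.15% of those lower, both under the share of all genes. Of the increases with an iBAT value in mouse 5 under 2 times that in mouse 1, 41 of 306 held them (13.4%). That share is close to the one of all genes. The receptor letters stood in 0.952% of all genes, 3 of the 65 and 0 of the 20. These are counts of letters and not of bound sites.

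The mitochondrial genome itself encodes 13 respiratory chain proteins, and all 13 were called higher in iBAT on the deposited scale, where 4.5% of genes were. Their log2 differences ran from 1.37 for mt-Nd6, the 1 protein gene on the other strand, to 2.10 for mt-Nd3, with a median of 1.85 against -1.36 over all genes. mt-Co1, a catalytic subunit of complex IV, had deposited values of 83262, 81068, 83155, 80281 and 73594 in iBAT and 27668, 34439.5, 23248, 23529.6 and 32221 in iWAT, and mt-Atp6 of complex V had 81265 ± 2702 and 22354 ± 4366. The ribosomal RNAs differed more, with mt-Rnr1 at 9745 ± 1226 in iBAT and 865 ± 169 in iWAT and log2 differences of 3.51 (mt-Rnr1) and 2.84 (mt-Rnr2). Ribosomal RNA is largely lost when poly(A) RNA is selected, so those values describe what was left after selection.

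Nuclear genes for the respiratory chain moved the same way, beside 4.33% of all genes called higher and 30.5% lower. Of 79 measured subunits of complexes I to V, 55 were higher in iBAT and 1 lower, with a median log2 difference of 2.23 (1.25 on the deposited scale), and with the muscle genes as a covariate 43 were higher and 2 lower. By complex, the counts higher were 24 of 36 for complex I, 3 of 4 for complex II, 9 of 9 for complex III, 12 of 15 for complex IV (7 with the covariate) and 7 of 15 for complex V (4 with the covariate). Together the 79 made up 11.3 to 13.3% of the nuclear value in iBAT and 1.94 to 2.90% in iWAT. The sum of the 13 mitochondrially encoded genes was 10.3 ± 0.577 times the sum of the nuclear subunits in iBAT and 7.91 ± 1.05 times in iWAT, from deposited values, and the ranges (9.55 to 11.1 and 6.23 to 9.06) did not overlap.

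Single subunits kept close together. Ndufv1 of complex I had 1911, 1870.0, 1802, 1736 and 1432 in iBAT and 242, 287, 240.2, 186 and 298 in iWAT (log2 difference 2.81), Sdhb of complex II had 1611 ± 112 and 230.5 ± 38.4 (2.82), Uqcrc1 of complex III had 1524 ± 185 and 204 ± 25.8 (2.90), and Atp5a1 of complex V had 4598 ± 329 and 908 ± 96.3 (2.34). Of the 79, 72 were called higher with mitochondrial genes left out, so most of the rest fell short on the deposited scale alone, where the difference of Ndufa2 was 0.33 against 1.31 here (1236 ± 20.5 and 504 ± 69.2). The 1 gene that fell was Atpif1, the inhibitor of ATP synthase, at 14.4, 17.8, 19.3, 19.5 and 17.98 in iBAT and 58.1, 52.1, 73.8, 74.3 and 52.03 in iWAT (-1.76, SE 0.11). Atp5g1, chosen after its values were seen, encodes a form of the ring subunit of complex V and was not called, with 7.47, 14.7, 27.8, 58.4 and 92.96 in iBAT, the order of the muscle share, and 26.3, 22.2, 26.2, 28.9 and 22.97 in iWAT. Complex IV ranged from Cox4i2, a form of subunit 4 (-0.42, not called), to Cox7a1 (7.10).

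The tricarboxylic acid cycle and beta-oxidation went with the chain, again beside 4.33% of all genes called higher. Of 20 cycle genes 17 were higher and 0 lower (median 2.60), and of 22 fatty acid oxidation genes 17 were higher and 1 lower (median 2.26). Acaa2, Hadhb and Acadvl, steps of beta-oxidation, had log2 differences of 4.10, 3.85 and 3.67, and the succinyl-CoA ligase subunits Sucla2 and Suclg1 had 3.54 and 3.36. Among those not called was Pcx, pyruvate carboxylase, which fills the cycle and serves lipid synthesis (means 640.4 ± 83.3 and 992 ± 306, -0.57). Cpt1a, the liver form of the entry enzyme, was the gene that fell, at 11.4, 14.9, 11.3, 10.8 and 16.4 in iBAT and 60.3, 44.6, 48.3, 67.8 and 48.3 in iWAT. Under the muscle covariate 17 cycle genes and 13 fatty acid oxidation genes were higher and 0 of either list lower.

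Other mitochondrial groups did not share that size of difference. Of 77 mitochondrial ribosomal protein genes 2 were higher, Mrps36 (3.08) and Mrpl34 (2.43), and 0 lower. Their median was 0.91 here, -0.05 on the deposited scale and 1.38 with median-ratio scaling, where 59 were called higher. By limma, 73 of them had an unadjusted p under 0.05 with mitochondrial genes left out and 50 on the deposited scale. Of 21 genes that break down branched-chain amino acids limma called 0 on both scales, although 16 had an unadjusted p under 0.05 with mitochondrial genes left out and 11 on the deposited scale. Their median was 0.75 here and -0.23 on the deposited scale, and Bckdha, of the branched-chain ketoacid dehydrogenase, had 1387 ± 166 in iBAT and 408 ± 105 in iWAT. For both groups the sign of the median thus rested on the scale. On each scale both medians stood above that of all genes tested, which was -0.55 here and -1.36 on the deposited scale. With median-ratio scaling it was -0.10, against 1.22 for the branched-chain genes.

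Pairs of related genes were compared, many but not all of them with 1 form restricted to heat-making or oxidative tissue. The balance within the pairs differed between depots. Values of the pair were turned into the share held by the gene named first, a ratio within a library that no scaling changes. Cox7a1 held 73.00 ± 0.925% of Cox7a1 plus Cox7a2 in iBAT and 7.52 ± 1.96% in iWAT. Cox8b held 70.9 ± 2.52% against Cox8a in iBAT and 15.8 ± 6.57% in iWAT, and Cpt1b held 98.99 ± 0.334% against Cpt1a in iBAT and 11.95 ± 7.14% in iWAT. In all 3 pairs the depots did not overlap.

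The same held for lipid handling. Among the fatty acid transport proteins, Slc27a2 held 61.9% of the pair with Slc27a1 in iBAT and 0.451% in iWAT. Cidea held 75.7% against Cidec in iBAT and 0.883% in iWAT, Plin5 held 31.3% and 1.15% against Plin1, and Fabp3 held 38.8% and 0.0438% against Fabp4. Ppara, the receptor that turns on fatty acid oxidation, held 37.97% against Pparg in iBAT and 3.76% in iWAT. Ldhb, the heart form of lactate dehydrogenase, held 46.8% against Ldha in iBAT and 14.7% in iWAT.

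Of the 22 pairs, 20 had a higher share in iBAT in 5 of 5 mice and 2 a lower share in 5 of 5. The 2 were Cox4i2 against Cox4i1 (0.247% in iBAT, 1.42% in iWAT) and Scd2 against Scd1 (0.289% and 0.85%). In 3 pairs the share followed the muscle share across the iBAT libraries. Ckmt2, mitochondrial creatine kinase, held 39.9% against Ckb in iBAT of mouse 1 and 93.6% in mouse 5, Cox6a2 held 0.557% and 10.4% against Cox6a1, and the ADP/ATP carrier Slc25a4 held 42.99% and 76.1% against Slc25a5. With the muscle genes as a covariate, the log2 differences were 1.04 for Ckmt2, 0.05 for Cox6a2 and -0.15 for Slc25a4, against 7.50, 6.37 and 1.74 without it. For Cox7a1 the shares in mice 1 and 5 were 73.1% and 72.5%, and for Ldhb they were 48.9% and 40.2%.

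Regulators of mitochondrial genes were a mixed group, with 7 of 22 higher and 1 lower (5 and 0 with the muscle covariate). Of all genes 4.33% were higher and 30.5% lower. Perm1, a partner of the estrogen-related receptors, had 103, 96.5, 90.3, 121 and 103 in iBAT and 0.964, 1.26, 1.51, 3.92 and 0.869 in iWAT. Esrrg and Esrra, 2 of those receptors, had 15.8 ± 1.47 and 233 ± 15.6 in iBAT and 0.69 ± 0.507 and 40.4 ± 3.72 in iWAT, and Ppargc1b, the relative of Ppargc1a, had 97.1 ± 13.7 and 8.52 ± 2.06. Nrf1, named here for its motif and not by the naming rule, was not called and had 4.46 ± 0.383 in iBAT and 7.61 ± 2.7 in iWAT. Tfb2m, a factor for mitochondrial transcription, had 112 ± 10.3 and 44.8 ± 5.09 (1.31 here, 0.34 on the deposited scale, not called).

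Of 27 carriers of the inner membrane and uncoupling proteins 9 were higher and 4 lower, beside 4.33% and 30.5% of all genes, and with the muscle genes as a covariate 7 were higher and 2 lower. Slc25a34 and Slc25a42, a coenzyme A carrier, were higher (log2 differences 5.67 and 3.89), and Slc25a10, the dicarboxylate carrier, was lower, at 16.7, 17.8, 30.6, 10.98 and 19.95 in iBAT and 499, 482, 402, 265 and 517 in iWAT. Ucp2 was lower as well (24.4 ± 1.22 against 147 ± 78.9), with its top iWAT value, 281, in mouse 4. Of 31 adrenergic and thyroid signaling genes 5 were higher and 5 lower, so the share lower was below the 30.5% of all genes, and with the covariate 5 were higher and 1 lower. Adra1a, an alpha-1 receptor, was higher (42.3 ± 5.84 against 6.41 ± 1.44), as was the phosphodiesterase Pde4d (31.3 ± 2.28 against 4.87 ± 0.749), and Adcy5, an adenylyl cyclase, was lower at 3.48, 5.3, 8.53, 1.83 and 6.8 in iBAT and 163, 175, 126, 92.1 and 243 in iWAT. Adrb3, the beta-3 receptor of adipocytes and a gene chosen after its values were seen, had 456 ± 94.9 in iBAT and 712 ± 190.4 in iWAT with overlap and was not called.

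Of 33 glucose uptake and glycolysis genes 15 were higher and 3 lower, beside 4.33% and 30.5% of all genes. Of the 15, 5 had a ratio of iBAT mouse 5 to mouse 1 of at least 4, close to the share over all increases (212 of 644). Pygm, Pgam2 and Eno3, muscle forms of glycogen phosphorylase, phosphoglycerate mutase and enolase, were among these 5, and Pygm had 99.1, 269.9, 322, 1255 and 2032 in iBAT. Gpd2, the mitochondrial glycerol phosphate dehydrogenase, took the reverse order, with 775, 739, 654, 576 and 435 in iBAT and 28.9, 36.3, 28.2, 31.02 and 28.6 in iWAT, and was higher by 4.33 (SE 0.13). Of 19 creatine and calcium cycle genes 9 were higher and 4 lower, the share lower again below that of all genes. Of the 9, 5 (Atp2a1, Ckm, Ckmt2, Ryr1 and, outside the naming rule, Camk2a) had such a ratio. Under the muscle covariate 9 of the glycolysis genes were higher and 1 lower, and 3 of the creatine and calcium genes were higher and 3 lower.

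Of 27 fatty acid and triglyceride synthesis genes 5 were higher and 5 lower, with and without the muscle covariate, beside 4.33% and 30.5% of all genes, so the share lower was below that of all genes. Elovl6, which makes stearate from palmitate, was higher at 397, 418, 375, 284 and 319 in iBAT and 42.5, 42.2, 25.1, 15.7 and 14.9 in iWAT, Acacb, the acetyl-CoA carboxylase at the mitochondrial surface, was higher (737 ± 94.8 against 123 ± 77.2), and Fads1, a desaturase, was lower (8.94 ± 2.25 against 61.8 ± 6.47). Scd1, the most abundant gene of the list, had 34925, 27563, 28006, 16396 and 12029.8 in iBAT and 38282, 41062, 30471, 20209.5 and 38350.3 in iWAT and did not pass the test with mitochondrial genes left out (adjusted p = 0.233). Fasn had 5289.8 ± 1474 and 1662 ± 661, a difference of 1.72 here and 0.74 on the deposited scale, and was not called.

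Of 22 lipolysis and droplet genes 5 were higher (Cidea, Fitm1, Gk and Plin5 among them) and 5 lower, beside 4.33% and 30.5% of all genes. With the muscle covariate 4 were higher and 1 lower. Fitm1 followed muscle with 12.2, 22.4, 58.2, 123 and 196 in iBAT. Pnpla2, the lipase that starts triglyceride breakdown, had 4229 ± 579 and 4117 ± 1405 with overlap. Of 25 uptake and activation genes 4 were higher, namely Fabp3, Slc27a2, Acsm3 (2.88) and Angptl8 (2.42), and 6 lower (3 with the covariate). Cd36, a fatty acid transporter, had 1912 ± 252 and 3202 ± 797 with overlap and was not called. Of 22 genes of both kinds of adipocyte 2 were higher, Gpd1 (2.52) and Cebpb (2.13), and 5 lower, with Cfd (adipsin) at 1738, 2457, 2862, 2426 and 3524 in iBAT and 14748, 29295, 26685, 17054 and 45886 in iWAT and Car3, a carbonic anhydrase, at 3509.7 ± 794 and 16650.2 ± 5296. With the muscle genes as a covariate 1 of these 22 was higher and 0 lower. In the droplet, uptake and shared adipocyte lists alike, the share lower was below that of all genes.

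**Figure D4:**
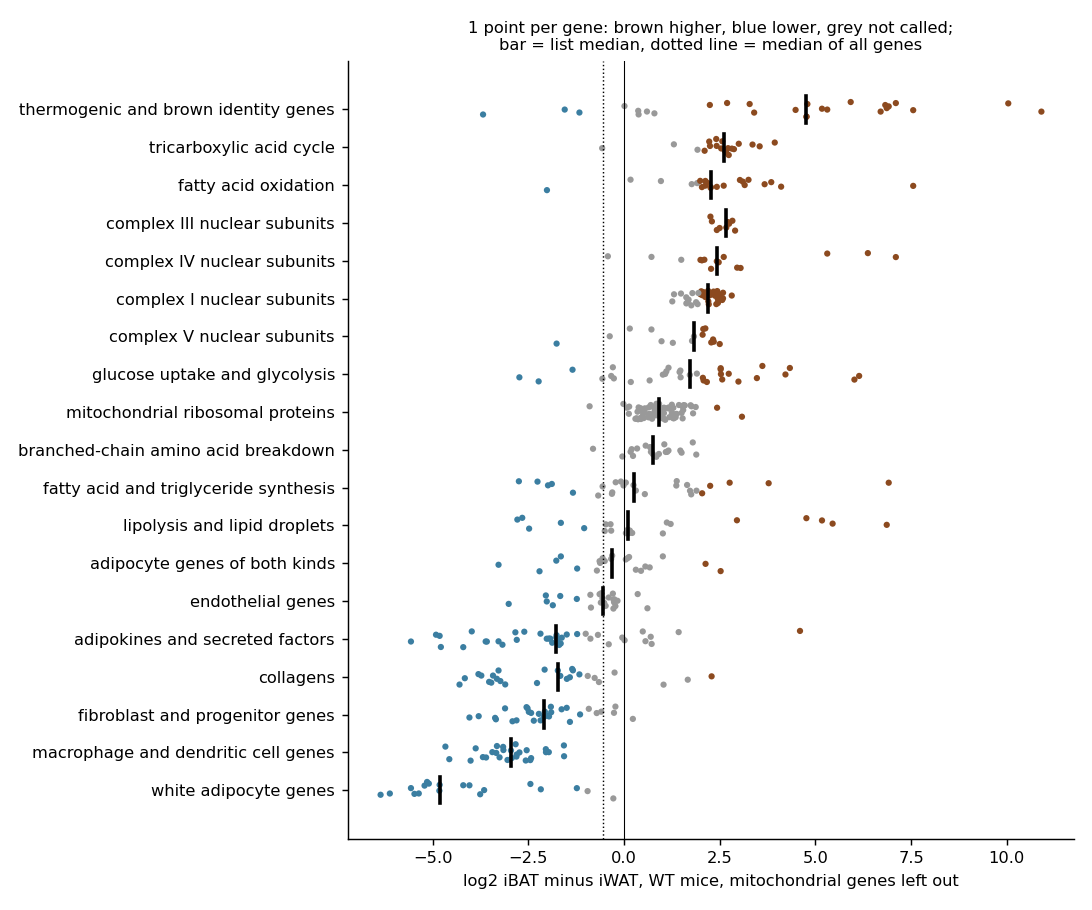
Each point is a gene tested on both scales, placed by its log2 difference (WT iBAT minus WT iWAT, mitochondrial genes left out) in the row of its list, brown where called higher, blue where called lower and grey where not called, with a bar at the list median and a dotted line at the median of all genes. The medians run from 4.76 for thermogenic genes through 2.2 to 2.7 for the cycle, fatty acid oxidation and complexes I, III and IV to -4.82 for white adipocyte genes, and the mitochondrial ribosomal genes lie close together near 0.91.

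Genes of white adipocytes gave the lowest median of the lists examined. Like the other lists, theirs was chosen with earlier results of these data known, so the median describes the list and is no test. Of 19 measured genes of that list (of 20) 17 were lower in iBAT and 0 higher, with a median of -4.82 against -0.55 over all genes, and 14 were lower with the muscle genes as a covariate. The 12 named genes with the largest decrease were Hoxc10, Nnat, Serpina3n, Lep, Mest, Sncg, Wfdc21, Cyp2f2, Ffar2, Hoxc9, Slc7a10 and Crtac1. Nnat, an imprinted membrane protein, had 58.2, 38.3, 153, 17.6 and 14.3 in iBAT and 2377, 2684, 2968, 2427 and 3302 in iWAT. Serpina3n, a secreted protease inhibitor, had 13.4, 10.6, 30.1, 4.12 and 7.45 in iBAT and 1101, 839, 767, 406 and 517 in iWAT, and Sncg, gamma-synuclein, had 87.2 ± 61.1 and 3318 ± 718. Genes of which the depots overlapped could not enter these 12.

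Among the others, Mest, an imprinted gene that tracks fat expansion, had 3.48, 1.2, 13.04, 0.687 and 1.97 in iBAT and 676, 95.7, 138, 84.5 and 61.2 in iWAT, with mouse 3 high in iBAT and mouse 1 high in iWAT. Retn, which encodes resistin, had 60.7, 62.3, 115, 34.3 and 77.8 in iBAT and 2279, 2204, 1765, 1074 and 2279 in iWAT, and Slc7a10, a neutral amino acid transporter of white adipocytes, had 14.2, 19.98, 28.6, 5.72 and 20.2 in iBAT and 521, 690.1, 536, 379 and 855 in iWAT. Ffar2, a receptor for short-chain fatty acids, was 37.4 times as high in iWAT as in iBAT, Wfdc21 39.4 times, Psat1 of serine synthesis 30.8 times, and Npr3, which clears natriuretic peptides, 14.3 times. The gene of this list closest to equal was Rb1, with 33.2 ± 4.49 in iBAT and 40.2 ± 2.22 in iWAT (-0.28, not called).

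The Hox genes, which mark position along the body axis, differed by paralog group. Of 39 Hox genes 27 were tested, 2 were higher in iBAT and 16 lower, beside 4.33% and 30.5% of all genes. With the covariate, 2 were higher and 6 lower. In groups 1 to 5, which mark the anterior trunk, 2 of 12 tested were higher and 2 lower, with a median log2 difference of 0.08. In groups 6 to 8, 7 of 8 were lower (median -1.82), and in groups 9 and 10, 7 of 7 were lower (median -3.55). None of the 9 genes of groups 11 to 13, which mark the posterior body, reached a mean of 1 in either depot, and their highest mean was 0.387.

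Hoxa4 had 53.8, 47.7, 49.1, 50.6 and 34.9 in iBAT and 4.34, 4.41, 4.07, 4.27 and 5.34 in iWAT. Hoxa5 had 85.9, 81.1, 81.00, 88.8 and 72.8 in iBAT and 12.3, 11.96, 9.52, 12.7 and 10.7 in iWAT. These were the Hox genes called higher, and the depots did not overlap in either. Hoxc8 had 6.97, 4.57, 7.27, 0.229 and 0.658 in iBAT and 128, 116, 103, 67.1 and 112 in iWAT, and its lower iBAT values were those of mice 4 and 5, the libraries with the most muscle RNA. Hoxc10 was listed at 0 in all 5 iBAT libraries and had 44.7, 53.3, 38.1, 25.8 and 46.9 in iWAT, and Hoxc9 was at 0 in 3 iBAT libraries and had 21.4, 24.6, 24.7, 13.6 and 23.3 in iWAT. Hoxd8 and Hoxd9 had their highest iBAT values in mice 4 and 5, unlike Hoxd4 (3.48, 3.13, 3.01, 4.12 and 3.73). Hoxd9 had 2.24, 3.85, 5.02, 8.24 and 11.8 in iBAT and 12.5, 11.8, 15.4, 17.3 and 10.2 in iWAT, and Hoxd8, not called, had 19.4, 21.2, 19.3, 43.7 and 56.6 in iBAT and 36.9, 34.9, 32.99, 24.4 and 32.8 in iWAT. Given the same covariate, the log2 difference was -3.10 for Hoxd9 (-1.22 without it), -2.18 for Hoxd8 (-0.15) and -2.39 for Hoxc8 (-5.10). The summed means of groups 1 to 5 were 208 in iBAT and 111 in iWAT, and those of groups 9 and 10 were 7.24 and 105.

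**Figure D5:**
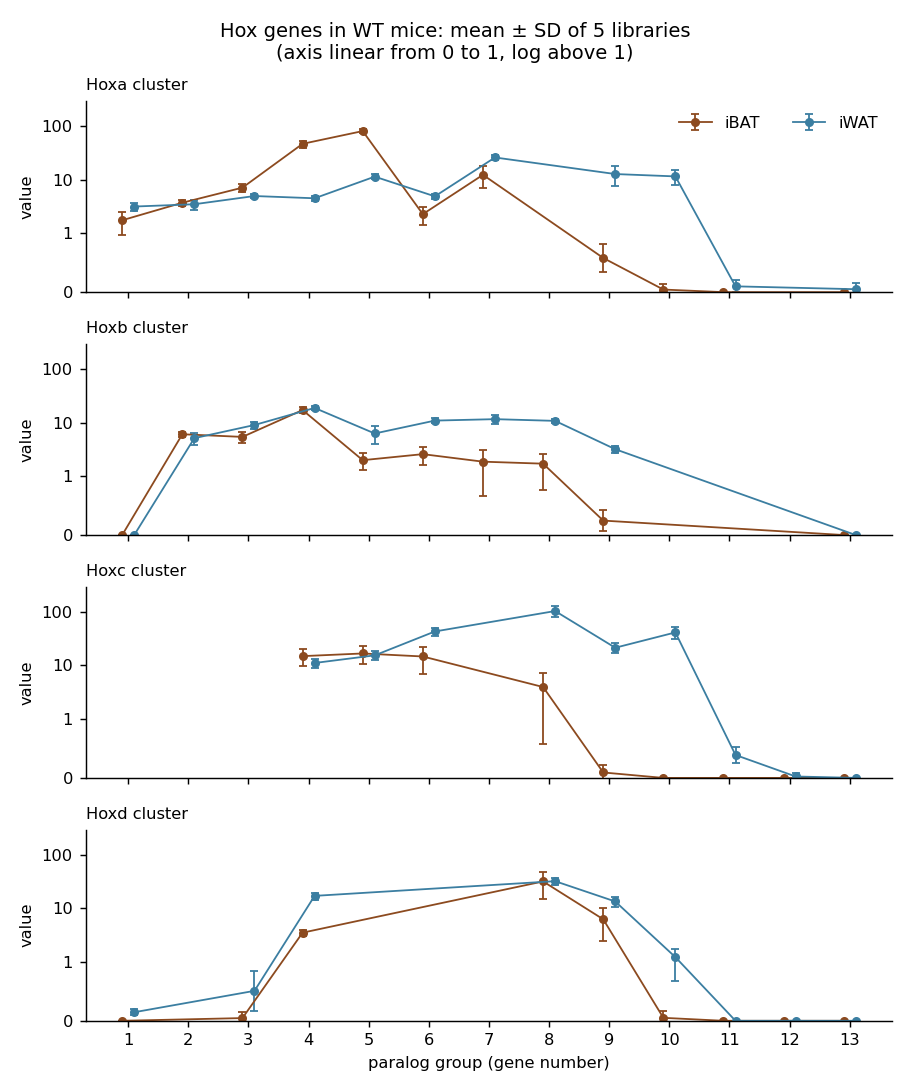
The mean value of each Hox gene in WT iBAT (brown) and WT iWAT (blue) is plotted against its paralog group for the 4 clusters, with error bars of 1 SD over 5 libraries, on an axis that is linear from 0 to 1 and logarithmic above. The iBAT curve lies above that of iWAT at Hoxa4 and Hoxa5 and drops toward 0 by groups 9 and 10 in the Hoxa, Hoxb and Hoxc clusters, while Hoxa9, Hoxa10, Hoxc9 and Hoxc10 stay above 10 in iWAT.

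Of 23 other developmental transcription factors 3 were higher and 12 lower, beside 4.33% and 30.5% of all genes, and with the muscle genes as a covariate 1 was higher and 6 lower. Beside Zic1, Myod1, a master gene of muscle, was higher, at 0.498, 1.44, 4.01, 6.87 and 8.33 in iBAT in the order of the muscle genes and at 0 to 0.126 in iWAT. Osr1, a factor of connective tissue, had 4.18 ± 1.21 in iBAT and 37.5 ± 5.6 in iWAT. Irx1 had 0.707 ± 0.324 and 7.44 ± 7.72, with 21.2 in iWAT of mouse 1.

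Secreted factors were mostly lower in iBAT. Of 38 adipokine and secreted factor genes tested 26 were lower and 1 higher, with a median of -1.77. Of all genes 30.5% were lower and 4.33% higher, with a median of -0.55. Beside Lep and Retn, Sfrp5, an inhibitor of Wnt signals, had 5.48, 6.98, 10.03, 6.18 and 12.1 in iBAT and 623, 180.1, 214, 197 and 205 in iWAT, and Fgf10 had 2.07 ± 1.05 and 68.1 ± 18.7. Adipoq had a log2 difference of -1.77 (SE 0.19), with no overlap. The angiogenic factors Vegfa and Vegfb were not called and had 419 ± 74.5 and 484 ± 60.9 in iBAT and 258 ± 67.5 and 330.3 ± 58.5 in iWAT.

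Matrix, immune and other stromal genes were lower in iBAT as groups, beside 30.5% of all genes called lower and a median of -0.55. Of 27 collagens 20 were lower and 1 higher (median -1.73), of 31 fibroblast and progenitor genes 25 were lower (median -2.09), and of 28 macrophage and dendritic cell genes 28 were lower (median -2.94). Fewer such cells and less of their RNA beside a larger amount of adipocyte RNA cannot be told apart in whole tissue. Col15a1, of the basement membrane around fat cells, had 20.7, 20.7, 34.4, 19.2 and 17.5 in iBAT and 628, 552, 405, 252 and 462 in iWAT. Dpt, dermatopontin, had 135 ± 46.00 and 2208 ± 558, and Gsn, gelsolin, had 1197 ± 275 and 16737 ± 3968. Gpnmb and Clec10a, macrophage genes, had 1.64 ± 1.24 and 4.8 ± 1.45 in iBAT and 59.7 ± 38.9 and 84.6 ± 25.2 in iWAT. Given the covariate, 16 collagens, 21 fibroblast genes and 16 macrophage genes were lower.

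Vessels did not follow that pattern as a group, while most nerve genes did. Of 24 endothelial genes 6 were lower (3 with the muscle covariate) and 0 higher, below the 30.5% of all genes called lower, and their median of -0.54 was that of all genes to within 0.01. Plvap, of the diaphragms of small vessels, was lower (31.8 ± 6.16 against 264 ± 65.2). Of 17 nerve and Schwann cell genes 11 were lower and 2 higher (8 and 1 with the covariate), beside 30.5% and 4.33% of all genes. Their median was -1.34, and the 2 genes given next went against most of the list. S100b, a calcium-binding protein of Schwann cells that adipocytes also make, had 416, 331, 376, 316 and 214 in iBAT and 24.6, 26.3, 16.8, 9.34 and 13.9 in iWAT, and Gldn, of the nodes of myelinated axons, had 17.3 ± 7.28 and 0.722 ± 0.261.

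The counts for some other cell types changed as libraries were left out. Among all genes tested, 30.5% were lower. All 21 tested lymphocyte genes were lower in iBAT, but 13 were without mice 3 and 4 and 14 without mice 4 and 5. With the muscle covariate, which is hard to separate from the depot, 0 were. Cd79a, a B cell receptor chain, had 1.99, 1.69, 1.76, 0.915 and 1.75 in iBAT and 3.49, 6.55, 217, 833 and 6.46 in iWAT. Of 18 liver genes 14 were lower, 1 without mice 3 and 4 and 4 with the covariate, and Alb had 89.6, 4.57, 5.27, 53.8 and 109 in iBAT and 230.0, 406, 272, 119 and 175 in iWAT. Of 12 epithelial and mammary genes 7 were lower (2 with the covariate), led by Trf, transferrin, which fat makes as well (122 ± 44.6 against 2588 ± 629.7), and Krt19 had 41.4, 2.9, 4.65, 2.54 and 2.11 in iWAT. Of 14 smooth muscle genes 5 were lower, near the 30.5% of all genes, and 1, Des, was higher with 149, 252, 458, 739.8 and 1187 in iBAT, the order of the skeletal muscle genes, in which it is also used. All 5 erythrocyte genes tested were lower (3 with the covariate), with Alas2, of heme synthesis in red cells, at 14.5 ± 2.94 and 52.3 ± 13.4, and the globin genes have near-identical copies between which reads can be split.

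For other groups the count rested on the scale. Of 76 cytosolic ribosomal protein genes 10 were lower and 0 higher, beside 30.5% and 4.33% of all genes. But 76 were lower on the deposited scale alone (median -1.70), 0 with median-ratio scaling, and 64 had an unadjusted p under 0.05 with mitochondrial genes left out (median -0.72). In LFABP-/- mice 47 were lower. All 10 lost their call with the muscle covariate and without mice 3 and 4, the iWAT libraries in which Rps4x stood at 1054 and 1762 against 620 to 734. limma called 0 of 18 circadian clock genes, of which 10 had an unadjusted p under 0.05 with mitochondrial genes left out and 16 on the deposited scale, and 1 of 23 cholesterol synthesis genes, Stard4 (-1.08). Of 31 peroxisome and antioxidant genes 4 were higher, with Sod2, the mitochondrial superoxide dismutase, at 281 ± 25.3 and 54.8 ± 12.9, and 2 lower (1 with the covariate), with Abcd2, which carries very long-chain fatty acids, at 67.2 ± 8.71 and 340.0 ± 86.3.

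The same depots of 5 mice labelled LFABP-/- gave a further set of pairs that shares no library with the WT pairs. By the same rule 635 of 14933 genes were higher in their iBAT (4.25%) and 5663 lower (37.9%). Of the 644 genes higher in WT, 407 were higher there too (63.2% of the WT list and 64.1% of the other), and 0 were lower. Of the 4529 lower in WT, 3908 were lower there (86.3% and 69.0%) and 58 were higher. Across 15039 genes the 2 sets of log2 differences had a Pearson r of 0.88, a description in which genes are not independent. The thermogenic list gave 19 higher and 2 lower, and the muscle list 22 of 29 higher. The liver list stood apart, with 17 of 18 genes higher in iBAT of those mice, whose mean log2 liver gene values were 3.40 to 6.44 against 0.234 to 2.72 in WT iBAT, and what part liver RNA has in any other gene was not tested.

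The difference between the 2 depot differences was tested in 1 fit of the 20 fat libraries. At an adjusted p under 0.1, 2096 of 15954 genes (13.1%) differed, 761 with a higher iBAT minus iWAT value in LFABP-/- mice and 1335 with a lower one. Between them were 17 of the 18 liver genes, 8 of 18 clock genes, 8 of 27 Hox genes and 10 of 38 adipokines, but 3 of 79 respiratory subunits and 0 of 20 cycle genes. Fgf21, a hormone of liver and heat-making fat, had means of 0.919 ± 0.555 in WT iBAT and 0.973 ± 0.753 in WT iWAT, and of 59.1 ± 40.9 and 3.81 ± 4.59 in those of LFABP-/- mice (difference 4.05, SE 0.32, adjusted p = 0.000467). Esrra was higher in iBAT of both genotypes, by 2.52 in WT and 1.04 in LFABP-/- mice (difference -1.47, SE 0.12). The metal-binding proteins Mt1 and Mt2 had positive differences in WT (1.15 and 0.82, and 0.17 and -0.16 on the deposited scale) and negative ones in LFABP-/- mice (-1.24 and -2.71). For Ucp1 the difference between genotypes did not pass (-2.30, SE 1.202, adjusted p = 0.287), and its iWAT mean was 8.41 ± 8.99 in WT and 258 ± 533 in LFABP-/- mice. The count moved from 1177 to 2792 as single mice were left out, and the fall to under 2096 by over 1.5 times came without WT mouse 2 (1250) or 3 (1177) or LFABP-/- mouse 2 (1313) or 3 (1221).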

How the data were processed

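Poly(A) RNA of iBAT and iWAT of 5 WT mice was sequenced by the authors, 1 library per depot and mouse, and aligned to GRCm38 in CLC Genomics Workbench. Strand was not given in the sources used here, so antisense and overlapping genes cannot be told apart. The deposited table of 41549 genes is headed RPKM, but each column sums to 999967 to 999996, so the deposited values were taken as TPM. They are rounded to 1 decimal, and no counts were used, so the depth is unknown. Samples were grouped by their labels. The same mouse number in the labels was taken to name 1 animal, so pairs shared a mouse block. Deviations from the depot means hardly correlated within a mouse (r = -0.09 to 0.05, against -0.27 to 0.20 between different mice), so the values do not check the pairing. No 2 libraries held identical values.

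Genes with a mean of at least 1 in either depot were tested on log2(value + 0.5) with limma 3.58.1 (R 4.3.3; lmFit, then eBayes with a trend), Benjamini-Hochberg adjusted over all genes, on the deposited scale and after leaving out 37 mitochondrial genes and rescaling. A pseudocount understates folds of low genes. Tables were handled in Python 3.11.15 with pandas 2.3.3, and the exact test used SciPy 1.17.1. The fit was tested on simulated data. The genotype difference was an interaction in 1 fit of 20 libraries.

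Genes named were Ucp1 and Lep, the 12 largest increases and decreases (mean of at least 20 in the higher depot, no overlap, a gene symbol), the Hox, thermogenic, white adipocyte, mitochondrial-genome and paired genes, up to 4 called and 2 uncalled members of other lists, and 8 interaction genes. Members and lists were chosen with earlier results of these data known. Alternatives were another scaling, a minimum mean of 20, no block, single mice left out, and, added after seeing the data, muscle and lymphocyte covariates and leaving out mice 4 and 5. Motifs were counted in RefSeq promoters. Some genes of these lists are not reported here.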

Additional observations from a re-analysis of the deposited data

Results flagged for a closer look

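Among 90 groups of 5 libraries examined, 17 held a library farther from the rest than Dixon's 95% limit, where chance gives about 1 in 20. The groups are not independent, since most of the 17 are muscle genes of 1 library, so the count cannot be read against that rate. In iWAT the library of mouse 2 stood above the other 4 in the mean log2 value of skeletal muscle genes (3.51) and in the values of Myh4 (87.5), Atp2a1 (85.4), Ckm (66.2), Pvalb (58.8), Tcap (24.1), Tnnt3 (93.6), Mb (12.7), Actn3 (28.2) and Tnni2 (43.8), and also in Lncbate10 (0.252). In iWAT the library of mouse 1 stood above the others in smooth muscle genes (mean log2 5.65), epithelial and mammary genes (3.77), Lep (2709), Mest (676) and Lgr6 (1.32), and in iBAT mouse 3 stood above the others in Mest (13.04).

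The depot difference differed between WT and LFABP-/- mice by the limma interaction for the 8 named genes. As iBAT minus iWAT of LFABP-/- mice less that of WT mice, it was 4.05 for Fgf21, -1.47 for Esrra, -1.60 for Irf2bpl, -3.53 for Mt2, -2.39 for Mt1, -1.07 for Osbpl5, -0.96 for Dipk1a and -1.64 for Fmo2, on the scale without mitochondrial genes, with adjusted p from 0.000467 (Fgf21) upward. Means of Fmo2, a flavin monooxygenase, were 15.8 ± 2.57 and 26.2 ± 3.66 in WT iBAT and iWAT and 6.11 ± 1.17 and 33.9 ± 9.15 in those of LFABP-/- mice.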

How the results depend on the processing

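Directions of calls depended on the scale and counts on the libraries. On the deposited scale 10788 genes were called, against 6094 with mitochondrial genes left out, 4714 with median-ratio scaling and 4542 with a minimum mean of 20, and 10127 to 11126 without single mice. With mitochondrial genes left out, the 6094 became 2723 with a minimum mean of 20 and 2441 with the muscle covariate, and 5467 to 6332 without single mice. Genes higher on both scales (644) numbered 323 with a minimum mean of 20, 399 with the muscle covariate and 619 to 675 without single mice, and those lower (4529) numbered 1606, 1567 and 3921 to 4727. The interaction count (2096) was 1209 on the deposited scale, 1101 with a minimum mean of 20, 1336 with the muscle covariate, 3727 with the lymphocyte covariate and 1177 to 2792 without single mice. The difference in mitochondrial share was 38.8 percentage points with protein-coding genes alone and 39.7 to 42.5 without single mice. Without the mouse block the counts were 10783, 6121, 648, 4548 and 2141 in the same order, and the pairing changed no other call. With the muscle covariate the log2 difference turned for Myh4 (-2.32), Atp2a1 (-1.54), Ckm (-2.21), Pvalb (-2.89), Tcap (-0.59), Tnnt3 (-1.27), Actn3 (-1.86) and Tnni2 (-0.59) and no longer passed for Mb (0.84) and Nnat (-4.28). That covariate is the mean of muscle genes, so for such genes a loss of the difference was built in. The muscle level also had no overlap between depots, so muscle and depot are hard to separate in that fit. Of 561 alternative values for 33 named genes, 551 kept direction and side of the threshold, and the others changed with the muscle covariate. The 33 were picked from these data for large differences without overlap, so this count does not test how firm the calls are. Muscle and lymphocyte covariates were chosen after seeing the data, and the cause of these shifts was not tested. A smaller count under a minimum mean reflects fewer genes tested.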
